A study of Rattus norvegicus with 16 samples.

Results

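Among the miRNAs on the Agilent rat array, rno-miR-34a and rno-miR-210 (miR-34a and miR-210 below) were picked by name as the miRNAs best known from the p53 and the hypoxia response, and every probe that the array design names for them was read on every array. They are 2 of the 350 miRNAs on the array and hold 4 of its 938 probes, 2 probes each. The RNA was total RNA of whole hippocampus from male Sprague-Dawley rats on 16 arrays, which the design calls biological samples, taken 24 h after injury or sham injury. The groups were naive rats killed without treatment (3 arrays), sham-injured rats (2), rats with severe lateral fluid percussion brain injury and no drug (TBI, 3), and rats with the same injury that also received a drug called PMI (3), JM6 (3) or E33 (2). The drugs are code names here, and dose and route were not given in the sources used here; age was not given either. Slide 1 held every naive and TBI array with PMI replicates 1 and 2. Slide 2 held the rest, PMI replicate 3 among them. TBI without drug and sham therefore lie on different slides, so their difference cannot be told apart from that between slides, and groups were compared within a slide only.

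A microRNA is a short RNA that is cut from a hairpin precursor and guides the silencing machinery to mRNAs, mainly through pairing of its seed, bases 2 to 8 from the 5′ end. The transcription factor p53, activated by DNA damage and other stress, binds the gene of miR-34a and raises its transcription, and miR-34a in turn restrains cell cycle genes and anti-apoptotic genes such as Bcl2 and the deacetylase gene Sirt1. The transcription factor HIF-1, which is stable only when oxygen is low, raises miR-210, which restrains the iron-sulfur cluster scaffold Iscu and so mitochondrial respiration. Both are therefore commonly measured where neurons are injured or blood flow fails.

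The sequences below show what the array could see. Mature sequences are those of RefSeq on build GRCr8, with the seed in capitals, and the seed relatives of miR-34a are shown because the results compare them with it.
miR-34a-5p: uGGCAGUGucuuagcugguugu
miR-34b-5p: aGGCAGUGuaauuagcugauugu
miR-34c-5p: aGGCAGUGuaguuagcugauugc
miR-449a-5p: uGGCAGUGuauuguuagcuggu
miR-449c-5p: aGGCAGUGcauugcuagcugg
miR-210-3p: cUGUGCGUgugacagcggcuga
The first 5 share the seed GGCAGUG and were the only ones of 693 RefSeq mature rat miRNAs to do so, while the seed of miR-210-3p, UGUGCGU, belonged to it alone. Mature miR-34a-5p lies at chr5:165815971-165815992 on the plus strand within the Mir34a gene, and miR-210-3p at chr1:205755946-205755967 on the minus strand within Mir210. Mir34b and Mir34c lie together on chromosome 8, 441 bases apart, away from Mir34a, and Mir449a and Mir449c lie on chromosome 2. Outside the seed the relatives diverge, and miR-34b-5p and miR-34c-5p differ from miR-34a-5p by 4 and 5 base changes, insertions or deletions.

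The probes are complementary to the 3′ part of their target, written here 5′ to 3′, and are shown because the members' values rest on them alone.
miR-34a, longer probe: acaaccagctaagacactgc
miR-34a, shorter probe: acaaccagctaagacactg
miR-210, longer probe: tcagccgctgtcacac
miR-210, shorter probe: tcagccgctgtcaca
The miR-34a probes pair with bases 3 to 22 and 4 to 22 of miR-34a-5p, and the miR-210 probes with bases 7 to 22 and 8 to 22 of miR-210-3p, so they measured the 5p arm of the former and the 3p arm of the latter. None of the 4 targets is found whole in another rat miRNA of RefSeq, and the longest stretch that the longer miR-34a probe can pair without a break was 7 bases in miR-34b-5p and miR-34c-5p and 9 in miR-449a-5p. On rn4, the build of the array design, the longer miR-34a probe is placed at chr5:167187919-167187937 and the longer miR-210 probe at chr1:201415728-201415742. The 2 probes of a member nest in each other, so they share their target and are not replicates.

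A value below is a log2 scaled signal, the log2 of a probe's mean spot intensity relative to a level of that array, the 75th percentile of those 284 probes that passed background on each of the 16. A probe counts as well above background on an array where Feature Extraction flagged most of its spots so. Between 293 and 463 probes an array passed this. None of 8 neuron markers, miR-124 among them, was at the floor throughout a group, and liver miR-122 and muscle miR-133a and miR-206 were at the floor on all 16 arrays. Muscle miR-133b averaged -3.84 in naive and -4.57 in TBI hippocampus, above the floor of -6.73, and muscle miR-1 left the floor only among naive arrays. Of the other markers of tissues outside the brain, miR-192 and miR-194 averaged -3.70 and -4.29 in naive hippocampus. Several arrays stood apart. TBI replicate 1 had miR-21, a miRNA raised in reactive glia, at 0.50. The other TBI arrays read 1.85 and 1.73, and naive replicates -0.048, 0.11 and -0.098. PMI replicate 1, sham replicate 1 and naive replicate 2 had the choroid plexus miRNA miR-204 at 2.56, 2.17 and 1.03, against -0.96 to -0.31 on the other 13 arrays. The number of arrays limits the precision, and fewer cells of a type cannot be told apart from less of the miRNA per cell in tissue RNA.

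rno-miR-34a passed the test in none of the comparisons, and injured and naive hippocampus differed in it by less than the spread among arrays. The E33 arrays lay above the sham and JM6 arrays at its longer probe only, and the highest level was in 1 naive sample. Its longer probe was well above background on all 16 arrays, with intensities of 1208 to 3358, and 0 of its spots were saturated. The naive arrays read 0.24, -0.73 and -1.19 (mean -0.56 ± 0.73, SD, n = 3). The TBI arrays read -0.82, -0.20 and -0.63 (mean -0.55 ± 0.32, n = 3). All 3 TBI values lay inside the naive range. On the same slide PMI replicates 1 and 2 read -0.62 and -0.77 (mean -0.70 ± 0.10, n = 2), also inside the naive range. On slide 2 the sham arrays read -0.61 and -0.27 (mean -0.44 ± 0.24, n = 2). The JM6 arrays read -0.47, -0.32 and -0.53 (mean -0.44 ± 0.11, n = 3), and the E33 arrays -0.23 and -0.0013 (mean -0.12 ± 0.16, n = 2). PMI replicate 3, the only array of its group on slide 2, read -0.47, within the range of the JM6 arrays. In order of their means the groups ran E33, then sham and JM6 on slide 2, and TBI, naive and PMI on slide 1. The arrays of neighbours in that order overlapped, except that the 2 E33 arrays lay above all 5 sham and JM6 arrays. E33 arrays lay wholly above sham for 32.7% of 226 miRNAs and wholly above JM6 for 6.96% of 230.

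**Figure D1:**
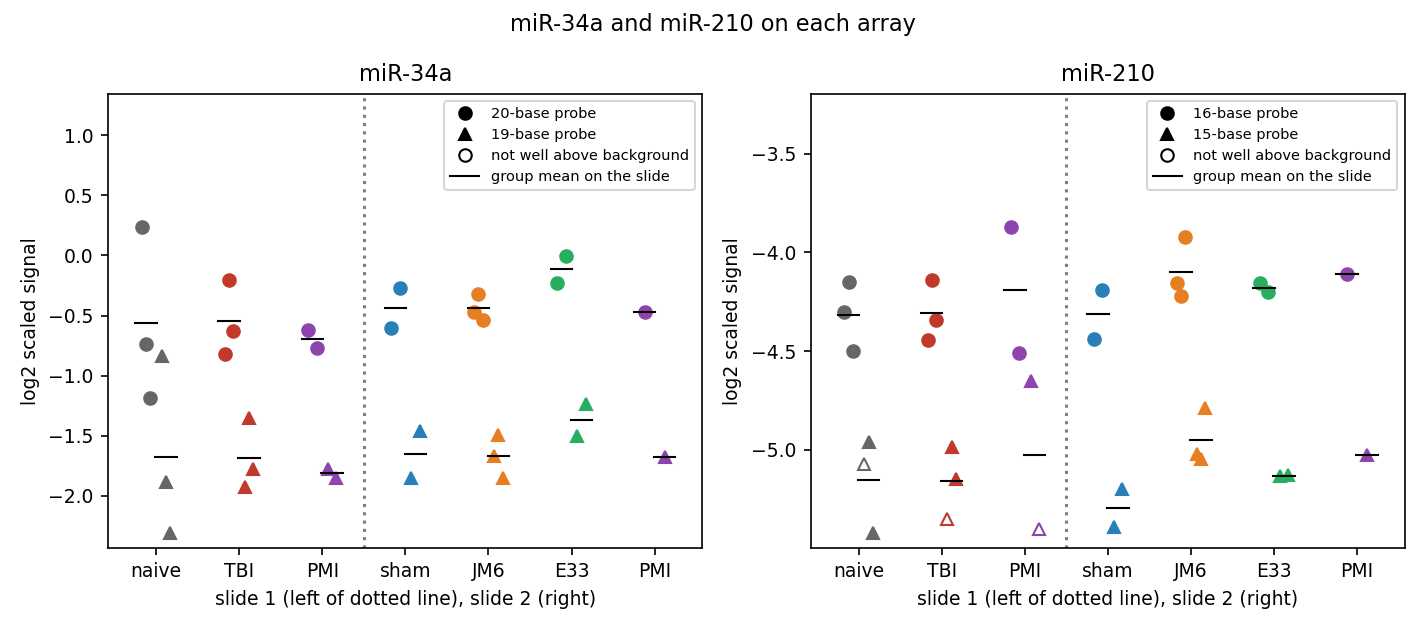
Log2 scaled signal of miR-34a and miR-210 on the 16 arrays, by group and slide; circles are the longer and triangles the shorter probe, bars are group means on the slide, and open symbols are probes not well above background. The 3 naive values of miR-34a spread from -1.19 to 0.24, wider than any other group, and the TBI values lie inside that range.

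The shorter miR-34a probe gave a similar picture for naive and TBI at a lower level, while its E33 arrays overlapped the sham and JM6 arrays. It read 1.08 to 1.32 below the longer probe on every array, and the values of the probes correlated at r = 0.98 over the 16 arrays (a description, since they share target and arrays). Its naive values were -0.84, -1.88 and -2.31, and its TBI values were -1.93, -1.35 and -1.78. The highest array was again naive replicate 1 and the lowest naive replicate 3. Of the 10 spots a probe had on an array, 8 to 10 were kept, and their coefficient of variation for the longer probe was 2.08% to 8.05%. The highest array exceeded the lowest by 2.69-fold.

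The comparison of TBI with naive asks whether injury moved the member by 24 h. miR-34a differed by 0.012 (SE 0.35, 95% interval -0.83 to 0.85, limma adjusted p = 0.980; exact two-sided permutation p = 1.0, where 3 against 3 arrays cannot go below 0.1). The interval runs from 1.77-fold lower to 1.80-fold higher. Changes within it, and larger ones at the adjusted threshold, could have been missed with these arrays. The groups' arrays overlapped for both members, as they did for all but 28.7% of the 171 miRNAs tested. At an adjusted p of 0.05 limma called 0 of the 171 (0%), and before adjustment 38 (22.2%) were under 0.05. By size of p, miR-34a and miR-210 ranked 170 and 169 of 171. Without TBI replicate 1 the difference in miR-34a was 0.15 (adjusted p = 0.902), and without naive replicate 1 it was 0.41 (adjusted p = 0.369).

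With PMI, miR-34a differed from TBI on slide 1 by -0.15 (SE 0.32, 95% interval -0.85 to 0.55, limma adjusted p = 0.948) and from naive by -0.14 (SE 0.32, interval -0.83 to 0.56, adjusted p = 0.828). In exact permutation tests both had p = 1.0, with 0.2 the smallest possible. The arrays overlapped in both, against 21.6% of 176 and 39.9% of 178 miRNAs without overlap. At the adjusted threshold 0% and 19.7% of miRNAs passed, 35 of them in PMI against naive, and neither member was among these. Before adjustment 21 (11.9%) and 64 (36%) were under 0.05. Without naive replicate 1, PMI against naive turned to 0.27 for miR-34a (adjusted p = 0.422).

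On slide 2, where the injured rats had JM6 or E33 and the controls were sham-injured, injury and drug cannot be told apart. JM6 and sham did not separate for miR-34a (difference -0.0035, SE 0.32, 95% interval -0.71 to 0.70, limma adjusted p = 1). Its arrays overlapped, while 31.1% of 225 miRNAs had no overlap. E33 was 1.25-fold above sham (0.32, SE 0.35, interval -0.45 to 1.09, adjusted p = 0.699), and its 2 arrays lay above both sham arrays, as held for 32.7% of 226 miRNAs, with 61.1% not overlapping in one direction or the other. JM6 was lower than E33 by 0.32 in mean (difference -0.32, SE 0.32, interval -1.03 to 0.38, adjusted p = 1), and all its arrays lay below both E33 arrays, as held for 6.96% of 230 miRNAs, with 12.2% not overlapping in either direction. By absolute difference miR-34a ranked 12 of those 230, and by p 50. Exact permutation p-values were 1.0, 0.333 and 0.2 in that order, the last 2 being the smallest that 2 against 2 and 3 against 2 arrays allow. The shorter probe overlapped both for E33 against sham and for JM6 against E33. At the adjusted threshold 0% of 225 miRNAs passed in JM6 against sham, 1.33% of 226 in E33 against sham and 0% of 230 in JM6 against E33, and before adjustment 23 (10.2%), 28 (12.4%) and 4 (1.74%) were under 0.05.

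**Figure D2:**
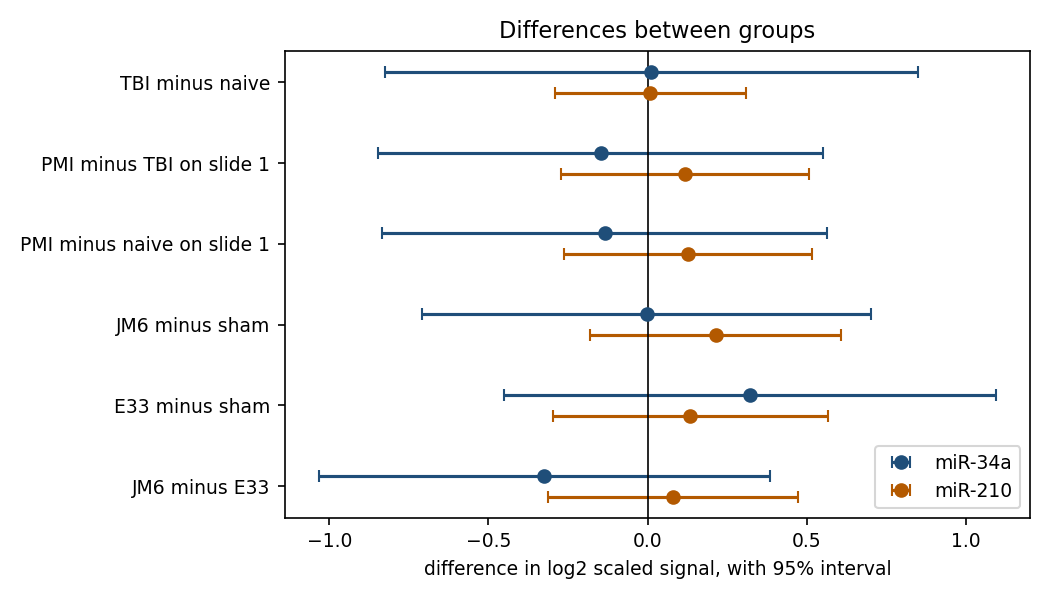
Differences in log2 scaled signal of miR-34a and miR-210 for the 6 comparisons within a slide; points are limma estimates and bars their 95% intervals. Each of the 12 intervals includes 0, and those of miR-34a are the wider ones.

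The level in naive replicate 1 was the largest single departure of miR-34a, and it was picked out after the values had been seen. Against the mean of naive replicates 2 and 3, miR-34a was 1.202 higher (2.30-fold), first of the 161 miRNAs that were well above background on all 16 arrays. On the same array its seed relatives stood at the opposite end. miR-34c was 1.83 lower (3.55-fold) and miR-34b 1.80 lower (3.49-fold), ranks 161 and 160, while the median miRNA differed by -0.061 and miR-210 by 0.020. The shorter probe of miR-34a was 1.26 higher. Those of miR-34b and miR-34c were not well above background on that array. The rank of miR-34a was 1 in each of the 5 other normalizations, the authors' processed table included, with differences of 1.04 to 1.38. miR-34b and miR-34c held the lowest 2 ranks of 161 in the others of them. In the authors' table they ranked 148 and 147. That table holds 741 of the 938 probes and miRNAs without a value were not counted, so these are not ranks of 161. Among markers of cell types, the choroid plexus miRNA miR-204 differed by -1.07 and the smooth muscle miRNA miR-143 by -0.71, both against a mean that holds naive replicate 2, where miR-204 was raised. The neuron markers went both ways, from -0.43 for miR-137 and -0.31 for miR-218 through 0.092 for miR-124 to 0.42 for miR-132 and 0.46 for miR-129. The part of these cell types in the level of miR-34a was not tested.

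**Figure D3:**
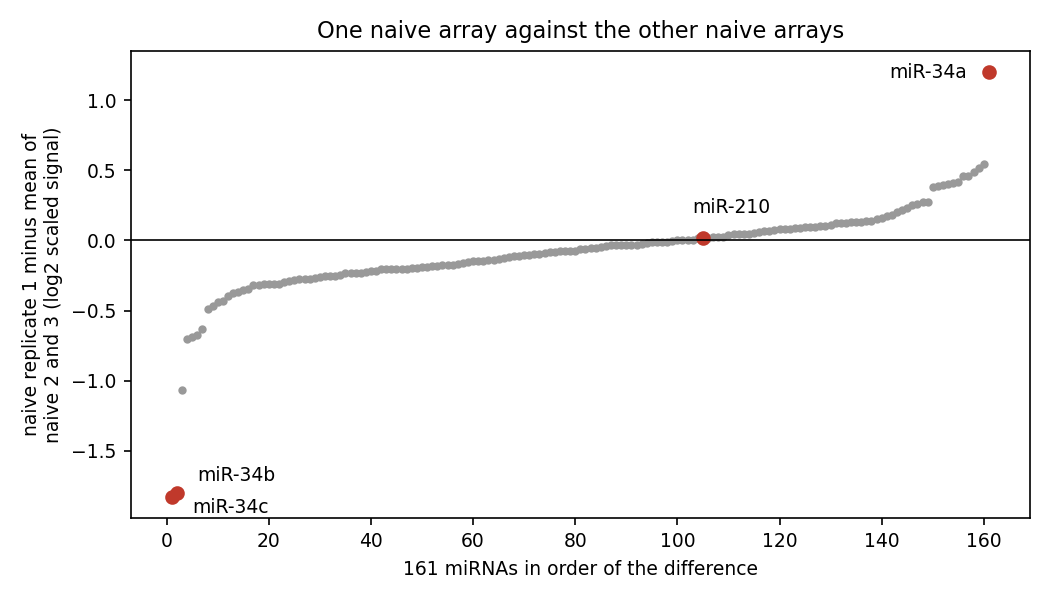
Log2 scaled signal of naive replicate 1 minus the mean of naive replicates 2 and 3, for 161 miRNAs in order of that difference. miR-34a is at the top with 1.202, apart from the other miRNAs, miR-34b and miR-34c are at the bottom with -1.80 and -1.83, and miR-210 is at 0.020.

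Over all arrays miR-34b and miR-34c, which are cut from neighbouring hairpins of 1 primary transcript and are best known from cells with motile cilia such as those lining the ventricles, moved together and not with miR-34a. They ranged 15.4-fold each from the lowest array, naive replicate 1, to the highest, PMI replicate 1. miR-34b read -3.34, -0.90 and -2.17 in naive and -1.36, -2.60 and -1.86 in TBI hippocampus, and miR-34c -4.40, -2.01 and -3.13 against -2.39, -3.66 and -2.91. The groups overlapped in both. After centring on slides, miR-34b and miR-34c correlated at r = 0.9993 with each other, and miR-34a at -0.50 and -0.52 with them (descriptions over 16 arrays, whose points share slides and groups). On PMI replicate 1 they read 0.61 and -0.45 and on sham replicate 1 -0.036 and -1.06, where miR-34a read -0.62 and -0.61. The choroid plexus and ependymal markers outside this family, 4 on the array, summed to 5.89 and 4.53 in scaled signal on these 2 arrays. The sum was 2.04 on naive replicate 2 and 0.513 to 0.809 on the other 13. Nearly all of it was miR-204, which gave 5.89, 4.49 and 2.04 on PMI replicate 1, sham replicate 1 and naive replicate 2. The others, miR-200a, miR-200b and miR-429, were at the floor throughout naive, TBI, PMI and E33. The part of these markers in the levels of miR-34b and miR-34c was not tested. miR-449a, the other relative on the array and a ciliated cell miRNA too, was at the floor on all 16 arrays.

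**Figure D4:**
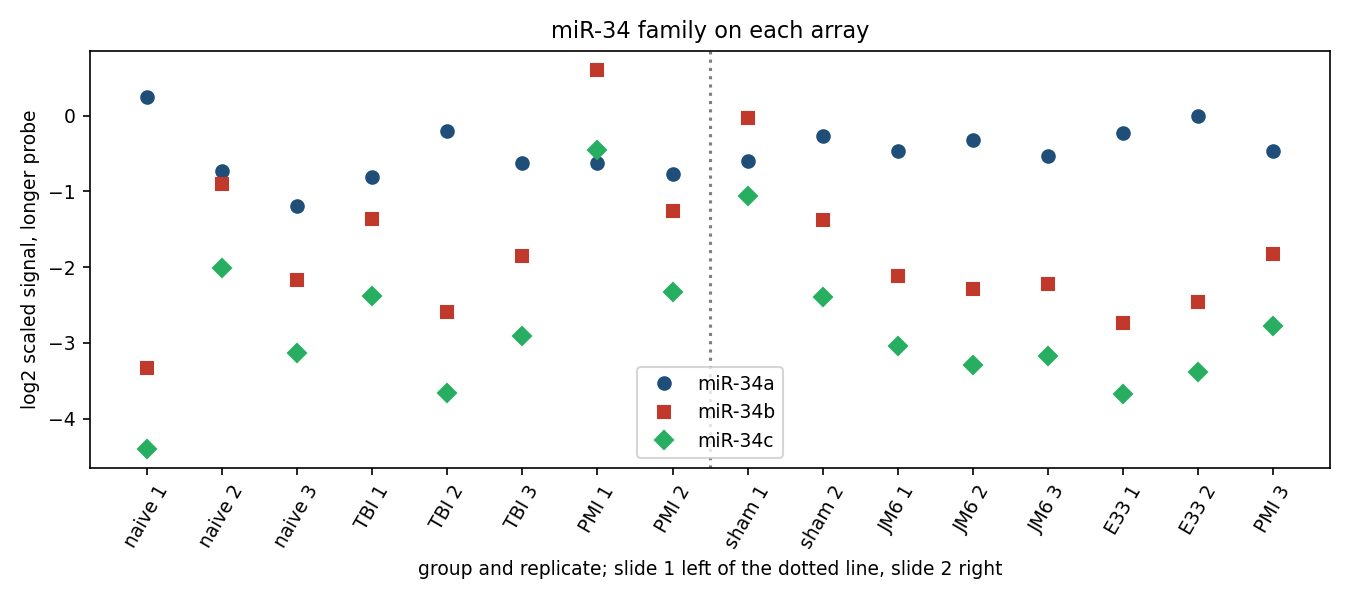
Log2 scaled signal of the longer probes of miR-34a, miR-34b and miR-34c on each of the 16 arrays, slide 1 left and slide 2 right of the dotted line. miR-34b and miR-34c rise and fall together over a 15.4-fold range, and on naive replicate 1, where both are lowest, miR-34a is highest.

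PMI replicate 1 and sham replicate 1 had the highest values of miR-34b and miR-34c. The differences of these miRNAs from TBI, naive or sham in the comparisons below were large but did not pass. Their arrays did not overlap between PMI and TBI, nor between sham and JM6 or E33, as was so for 21.6%, 31.1% and 61.1% of miRNAs. Nor did they overlap between JM6 and E33, as was so for 12.2% of 230 miRNAs. There JM6 was higher by 0.39 (SE 0.69) in miR-34b and 0.37 (SE 0.69) in miR-34c. In PMI against TBI they were 1.61 (SE 0.68) and 1.60 (SE 0.68), both with limma adjusted p = 0.410, and without PMI replicate 1 they were 0.68 and 0.66. In PMI against naive they were 1.81 and 1.79 (adjusted p = 0.077 and 0.079), 0.88 and 0.85 without PMI replicate 1, and 1.21 and 1.18 without naive replicate 1. They passed there without naive replicate 2, with 2.43 and 2.37 (adjusted p = 0.026 and 0.030), and were 2.74 and 2.73 without PMI replicate 2 (adjusted p = 0.052 for both). In JM6 against sham they were -1.50 and -1.44 (adjusted p = 0.444 for both), and in E33 against sham -1.89 and -1.81 (adjusted p = 0.307 and 0.309). Without sham replicate 1 they were -0.83 and -0.77 for JM6 and -1.22 and -1.14 for E33. Under no scaling between arrays the adjusted p was 0.029 for both in PMI against TBI and 0.011 in PMI against naive. miR-34a, with the same seed, differed by -0.15 and -0.14 in PMI against TBI and naive. It differed by -0.0035 and 0.32 in JM6 and E33 against sham, and by -0.32 in JM6 against E33.

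rno-miR-210 varied less than miR-34a over all 16 arrays, but within groups about as much once naive replicate 1 was left out. miR-210 passed the test in none of the comparisons either. Its longer probe was well above background on all 16 arrays, with intensities of 95.9 to 236.8, and the range between the highest and the lowest array was 1.56-fold. The naive arrays read -4.30, -4.15 and -4.50 (mean -4.32 ± 0.17, SD, n = 3) and the TBI arrays -4.44, -4.14 and -4.34 (mean -4.31 ± 0.15, n = 3), which interleave. PMI replicates 1 and 2 read -3.87 and -4.51, the highest and the lowest of all 16 arrays. On slide 2 the sham arrays read -4.44 and -4.19 (mean -4.31 ± 0.18, n = 2) and the JM6 arrays -4.15, -4.22 and -3.92 (mean -4.10 ± 0.16, n = 3). The E33 arrays read -4.16 and -4.20 (mean -4.18 ± 0.032, n = 2), and PMI replicate 3 read -4.11. In order of their means the groups ran JM6, E33 and sham on slide 2 and PMI, TBI and naive on slide 1. The arrays of neighbours in that order overlapped at the longer probe. Among the 161 miRNAs the pooled SD within a group and slide was 0.21 for miR-210 (rank 36) and 0.39 for miR-34a (rank 10), with a median of 0.14. Without naive replicate 1 it was 0.23 for miR-34a (rank 25) and 0.22 for miR-210 (rank 28). Without PMI replicate 1 it was 0.41 for miR-34a (rank 9) and 0.15 for miR-210 (rank 68).

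TBI and naive differed in miR-210 by 0.0085 (SE 0.13, 95% interval -0.29 to 0.31, limma adjusted p = 0.960; exact two-sided permutation p = 0.9). The interval reaches from 1.22-fold lower to 1.24-fold higher, narrower than for miR-34a. Without TBI replicate 1 the difference was 0.076 (adjusted p = 0.824). PMI differed from TBI by 0.12 (SE 0.18, interval -0.27 to 0.51, adjusted p = 0.948) and from naive by 0.13 (SE 0.18, interval -0.26 to 0.52, adjusted p = 0.694). Both rest on PMI replicate 1. Without it they were -0.20 (adjusted p = 0.994 and 0.552), and without PMI replicate 2 they were 0.44 and 0.45 (adjusted p = 0.251 and 0.101). On PMI replicate 1 miR-210 was 0.64 above PMI replicate 2, rank 4 of 161 miRNAs, behind miR-204, miR-34c and miR-34b, and it was rank 11 with 0.077 under normexp, a model-based background correction. Whether the choroid plexus tissue that miR-204 marks has a part in the miR-210 of that array was not tested. On sham replicate 1 and naive replicate 2, where miR-204 was raised too, miR-210 read -4.44 and -4.15.

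JM6 exceeded sham in miR-210 by 0.21 (SE 0.18, 95% interval -0.18 to 0.61, limma adjusted p = 0.776; exact permutation p = 0.4), and 2 of the 3 JM6 arrays lay above both sham arrays. E33 exceeded sham by 0.13 (SE 0.20, interval -0.30 to 0.57, adjusted p = 0.775) and JM6 exceeded E33 by 0.080 (SE 0.18, interval -0.31 to 0.47, adjusted p = 1), with overlap in both. Under normexp the JM6 and sham means lay 0.65 apart (adjusted p = 0.372). The shorter miR-210 probe lay 0.77 to 1.01 below the longer one and was well above background on 13 arrays, all but naive replicate 1, TBI replicate 1 and PMI replicate 2. In limma it was tested on slide 2 only. There the JM6 arrays (-5.02, -5.05 and -4.79) lay above the sham arrays (-5.39 and -5.20), by 0.34 (interval -0.10 to 0.78, adjusted p = 0.624 over 418 probes), and the exact permutation p of 0.2 was the smallest possible. At this probe E33 also lay above sham, by 0.16, and JM6 above E33, by 0.18, without overlap (exact permutation p = 0.333 and 0.2, the smallest possible; adjusted p = 0.738 and 1). Over all miRNAs, at their brightest probe, 31.1%, 61.1% and 12.2% had no overlap in these 3 comparisons. On slide 1 its groups overlapped, with exact permutation p of 0.9 for TBI against naive and 0.8 for PMI against either.

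Over the 16 arrays, centred on slides, miR-34a and miR-210 had Pearson r = 0.25 (p = 0.443) and Spearman rho = 0.41 (p = 0.138), from 100000 two-sided permutations within slides. Without the 2 arrays farthest from the median of miR-34a, naive replicates 1 and 3, r was 0.23 (permutation p = 0.476). It was 0.33 (permutation p = 0.259) after centring on group and slide. With the percentile over all probes rho was 0.55 (permutation p = 0.0496), and with no scaling r was 0.66 (permutation p = 0.015). This was 1 relation, so no adjustment over relations was made.

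The miRNAs most like miR-34a over the 16 slide-centred arrays, of 160 candidates, were miR-129* (r = 0.73), miR-129 (0.66), the arms of 1 neuronal miRNA, and miR-135b (0.64). miR-129* ranged from 1.33 on PMI replicate 2 to 2.20 on E33 replicate 1, and miR-135b from -4.61 on TBI replicate 1 to -3.23 on JM6 replicate 2. Naive replicate 1 was the highest array of miR-34a. There miR-129*, miR-129 and miR-135b were 0.46, 0.46 and 0.54 above the mean of naive replicates 2 and 3. No r without that array was computed. Most like miR-210 were miR-132 (r = 0.44), which neuronal activity induces, miR-322 (0.43) and miR-652 (0.42). These are the highest of many values and are given as a description. miR-132 ranged from -0.49 on sham replicate 1 to 0.47 on JM6 replicate 3.

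Of 6 further p53-induced miRNAs on the array (miR-34b, miR-34c, miR-34c*, miR-192, miR-194 and miR-215), 4 were tested in each comparison and 0 passed in any, beside the shares of all miRNAs passing given above. miR-194, which shares precursors with miR-192 and miR-215, had the lowest adjusted p among them in TBI against naive, 0.157, with a difference of -0.32. The list's median difference was 0.062 in TBI against naive, beside -0.051 over all miRNAs tested. It was 0.83 in PMI against TBI and -0.86 in JM6 against sham, beside -0.087 and 0.022, and 2 of the 4 tested are miR-34b and miR-34c. Of the miRNAs whose processing p53 is known to enhance (miR-16, miR-143 and miR-145), 2 or 3 were tested and 0 passed. In TBI against naive miR-143, a miRNA of smooth muscle, differed by -0.60 and miR-16 by 0.22 (adjusted p = 0.464 and 0.180). The 4 vessel markers, miR-143 among them, summed to 4.36 in scaled signal on naive replicate 2 and to 1.60 to 2.17 on the other 15 arrays, and their part in this difference was not tested. The miRNAs that act on p53 or its regulators (miR-125b-5p, miR-29a, miR-29b and miR-29c) were all tested in each comparison, and 0 passed. All 4 had means below naive in the TBI rats, with differences of -0.098 for miR-29c to -0.010 for miR-29a. Their list median was -0.064, beside -0.051 over all miRNAs tested. All 4 were also lower in PMI against TBI, PMI against naive, JM6 against sham and E33 against sham. The list medians there were -0.11, -0.18, -0.13 and -0.14, beside -0.087, -0.12, 0.022 and 0.041 over all miRNAs tested. In JM6 against E33, 2 of the 4 were lower.

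Of 14 other miRNAs linked to hypoxia on the array, 12 were tested in each comparison and 1 passed in one of them, miR-21 in PMI against naive, where 19.7% of all miRNAs tested passed. In TBI against naive 10 of the 12 had a higher and 2 a lower mean, with a list median of 0.13 beside -0.051 over all miRNAs, and 0 passed. The median was -0.051 in PMI against TBI, 0.044 in PMI against naive, -0.070 in JM6 against sham and -0.063 in E33 against sham, beside -0.087, -0.12, 0.022 and 0.041. Aside from miR-21, the differences in TBI against naive ran from -0.14 for miR-322 to 0.24 for miR-27a. miR-103 and miR-107, which target the microRNA-processing enzyme Dicer, differed by 0.022 and -0.046, and miR-24 and miR-26a by 0.16 and 0.081.

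miR-21 read 1.03 and 1.74 on PMI replicates 1 and 2 against -0.048, 0.11 and -0.098 in naive hippocampus, with no overlap, and rose by 1.40 (SE 0.32, limma adjusted p = 0.014). The adjusted p was 0.055 without naive replicate 3, 0.061 without PMI replicate 1 and 0.101 without PMI replicate 2. It was 0.054 with normexp, 0.053 with no filter and 0.069 with only the arrays of the slide. In TBI against naive its difference was 1.37 (SE 0.34, adjusted p = 0.136), with TBI replicate 1 the lowest TBI array at 0.50. In JM6 and E33 against sham it was 1.40 and 1.35 (adjusted p = 0.087 and 0.133). miR-21 is known to respond to hypoxia and to many inflammatory and growth signals, and the cause of its differences here was not tested. In TBI against naive, PMI against naive, JM6 against sham and E33 against sham, miR-210 differed by 0.0085, 0.13, 0.21 and 0.13.

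**Figure D5:**
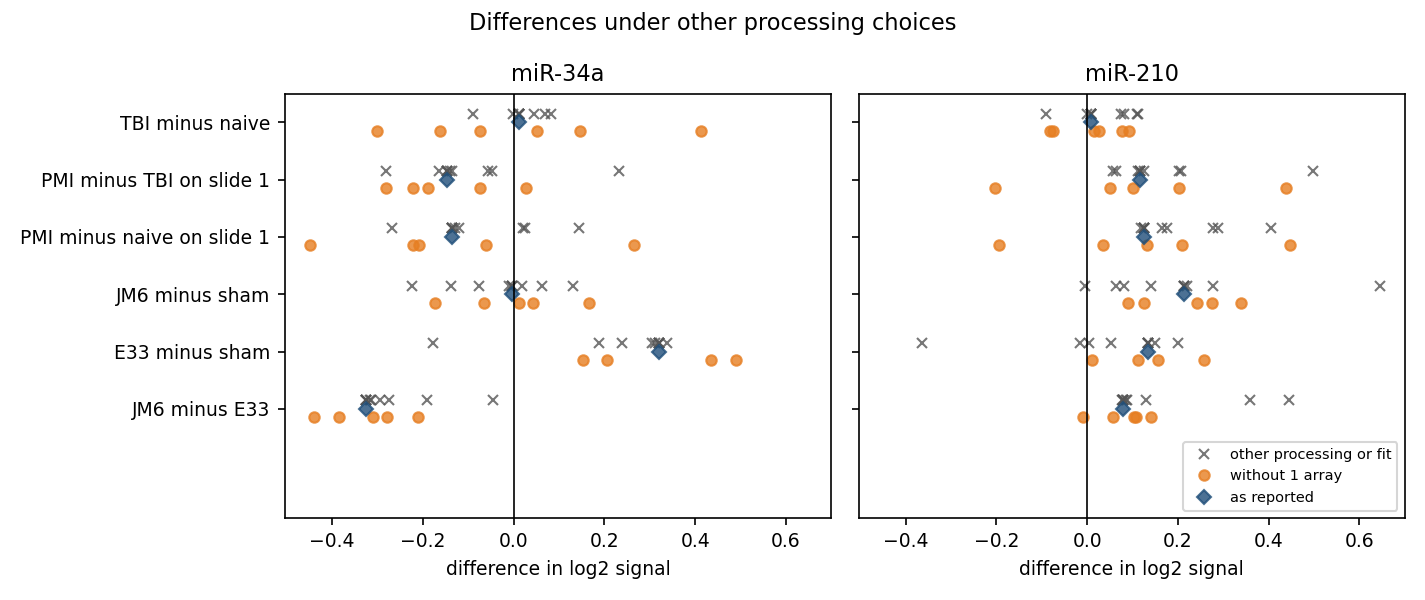
Difference in log2 signal of miR-34a and miR-210 in each comparison as reported (diamonds), under other processing or fits (crosses) and without each array in turn (circles). The TBI and naive difference of miR-34a runs from -0.30 to 0.41 when single arrays are left out, and that of miR-210 from -0.082 to 0.092.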

How the data were processed

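Each of the 16 arrays gave 1 sample. The authors' deposited scanner files hold spot intensities with the background subtracted, written by version 9.5.3.1 of Agilent Feature Extraction for each array by itself. The authors' processed table holds intensities equal to the total probe signal times 1 constant per array (within 2% for 95.26% to 98.13% of probes over 1), with low values held at 0.01; how GeneSpring GX set that constant was not given in the sources used here. Outlier spots were left out, spots averaged, arrays divided by their 75th percentile over 284 probes (1946 to 4042), and values held at a floor of -6.73 (log2), the median of the lowest signals well above background. Scaling sets what a difference is relative to. Probes differ in affinity, so levels were not tested between miRNAs, and sums of marker signals weigh each miRNA by its probe. The gap between nested probes of a miRNA is no amount. A miRNA was represented by its brightest probe and tested if all arrays of either group compared had this probe well above background. limma 3.58.1 in R 4.3.3 (lmFit, eBayes, Benjamini-Hochberg) was fitted on 6 arrays for TBI and naive, and on all 16, with 1 mean for each group on each slide, otherwise. Exact tests used scipy 1.17.1 in Python 3.11.15. The design text counts 3 biological samples for each group; 2 sham and 2 E33 arrays were used here. No 2 arrays held identical values. The script was tested on simulated data. The members, the lists and the alternatives were chosen with earlier results of these data known. Named are the members, the seed family, list members past the threshold and the 3 miRNAs most like each member; miR-204, the cell type markers and list members that did not pass, were named after their values were seen. Alternatives were other background corrections, scalings, filters, probe choices, fits and left-out arrays. Sequences are from RefSeq (GRCr8) and the array design.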

Additional observations from a re-analysis of the deposited data

How the results depend on the processing

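Neither member passed an adjusted p under 0.05 in any comparison under any of the alternatives tried (182 values, lowest adjusted p 0.101), but several small differences changed sign. In TBI against naive, miR-34a and miR-210 were -0.00028 and -0.00051 as means over probes, -0.089 and -0.092 with no scaling, and miR-34a -0.012 at the shorter probe; single arrays left out gave -0.30 to 0.41 and -0.082 to 0.092, and for miR-34b and miR-34c -0.40 to 0.81 and -0.42 to 0.78. In PMI against TBI, miR-34a was 0.23 with no scaling and -0.28 to 0.027 without single arrays, and miR-210 -0.20 to 0.44. In PMI against naive, miR-34a was 0.14 with no scaling, 0.026 with the percentile over all probes, 0.021 in the authors' table and -0.45 to 0.27 without single arrays, and miR-210 -0.20 to 0.45. In JM6 against sham, miR-34a was 0.018 with normexp, 0.064 with quantile normalization and -0.17 to 0.17 without single arrays, and miR-210 -0.0057 with no scaling. In E33 against sham, miR-34a was -0.18 and miR-210 -0.36 with no scaling, and miR-210 -0.015 with quantile normalization. In JM6 against E33, miR-210 ranged from -0.0083 to 0.14 without single arrays. The correlation of the members was 0.66 with no scaling (permutation p = 0.015). The cause of these shifts was not tested.

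The counts of miRNAs past the threshold moved more. In TBI against naive (0) they were 1 with normexp, 1 with no scaling, 7 in the authors' table, 5 with all 16 arrays fitted, 25 by the methods' t-test (0 after Benjamini-Hochberg) and 0 to 9 without single arrays, 9 of them without TBI replicate 1. In PMI against TBI (0) there were 3 with no scaling and 0 without any single array. In PMI against naive (35) there were 0 with normexp, 23 with quantile normalization, 13 with a percentile of all probes, 4 with no scaling, 13 in the authors' table, 20 with no filter, 15 with only the arrays of the slide, and 0 to 41 without single arrays, 0 without naive replicate 3 or PMI replicate 1. In JM6 against sham (0) there were 2 with quantile normalization, 2 with a percentile of all probes, 12 with only the arrays of the slide and 0 to 3 without single arrays. In E33 against sham (3) there were 0 with normexp, the authors' table, the stricter filter, the mean over probes or every probe fitted, 1 with no scaling, 9 with only the arrays of the slide and 0 to 2 without single arrays. In JM6 against E33 (0) there were 0 to 2 without single arrays.

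The replicate numbers were not taken as pairs: same-numbered TBI and naive arrays correlated at -0.27, -0.15 and 0.084 after group means were removed, and PMI and TBI arrays of slide 1 at 0.34 and 0.29 over 2 numbers. With the replicate block the E33 against sham count was 0, miR-34a in JM6 against sham 0.13, in PMI against TBI -0.28, in PMI against naive -0.27 and in JM6 against E33 -0.19, and the block changed no other call of a member.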
